A study of Rattus norvegicus with 288 samples.

Results

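The genes described here are a list of 40 genes of the cell cycle, from the factors that license replication origins to the motors and kinases of mitosis, measured in heart, kidney and liver of rats given oxaliplatin, sunitinib, sorafenib or their vehicles. Members were chosen by gene symbol, and each was read from its brightest probe set in the tissue. Of the 40, 37 had a probe set of their own among 14218 genes. Rrm2 was only on probe sets shared with a second gene, and Nek2 and Tpx2 had no probe set named for them. A gene was tested where at least 4 arrays of a tissue had it over 6 on the log2 scale, which kept 36 members among 11317 genes in heart (Ttk was dimmer), 36 among 12310 in kidney (Bub1b was dimmer) and 35 among 11619 in liver (Bub1b and Ttk were dimmer).

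The series held whole-genome expression arrays, 1 for each of 3 tissues of 96 male Sprague Dawley rats aged about 8 weeks. Every rat carried a femoral vein cannula and was infused by vein for 30 min with oxaliplatin (15 mg per kg, a platinum drug that binds DNA) or with D5W (dextrose in water, its vehicle), and then took an oral dose. By mouth, rats received 5 mg per kg of sunitinib or water, in which it was given, and others 25 mg per kg of sorafenib or the blend that carried it. That blend, named F68 here, held propylene glycol, PEG400 and Pluronic F68. Sunitinib and sorafenib both inhibit receptor tyrosine kinases, among them those for VEGF. The 8 treatments were sampled at 1, 6 and 24 h with 4 rats each, which made 24 groups in a tissue and 72 in all. The rats were healthy and bore no tumour, so the values describe normal organs after a single round of dosing. Rats given water or sunitinib were dosed first and those given F68 or sorafenib on a later day, so vehicle and dosing day cannot be told apart. The number in an array's code also differed by oral dose. What it stands for is not stated, so oral dose and array code cannot be told apart either.

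Cells that divide copy their DNA in S phase and separate the copies in mitosis, and many of the genes for these steps are transcribed only in dividing cells. The Mcm2 to Mcm7 proteins form the helicase that opens replication origins, Pcna is the clamp that holds DNA polymerase, and Tyms, Tk1 and Rrm1 supply nucleotides. Cyclins with Cdk1 drive the entry into mitosis, Cdc25b activates Cdk1, the aurora and polo-like kinases build the spindle, and Cdc20 and Ube2c work with the anaphase promoting complex, which ends mitosis. Most cells of the adult heart, kidney and liver do not divide, so the RNA of many of these genes may come from a minority of cells. Which cells it came from was not measured in these samples of whole tissue. Fewer cells of a kind and less RNA per cell cannot be told apart in such samples.

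The promoters of these genes carry known control words. E2F factors act on the S phase genes, and the CCAAT box and the cell cycle genes homology region (CHR) are known from genes of mitosis. Windows of 300 bases around the start (250 before, 50 after) from RefSeq, rat build GRCr8, were found for 33 members. Both strands were searched for the CCAAT box (CCAAT), the CHR (TTTGAA or TTCGAA) and E2F words (TTTCCCGC, TTTGCCGC, TTTCGCGC or TTTGGCGC, which can overlap each other). The CCAAT box was in 25 of the 33 members' windows (75.8%), against 37.5% of all 33469 windows. The CHR was in 19 (57.6%), against 19.7% of all, and an E2F word in 7 (21.2%), against 2.14% of all. Of the 7 members with an E2F word, 5 were among the 6 licensing and clamp genes with a window. Of 9 windows of genes for chromosomes, spindle and cytokinesis, 9 had a CCAAT box and 7 a CHR. Words of this kind also occur by composition, and a match is no proof of a site.

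The 250 bases before the start of 5 members picked as examples are printed 5′ to 3′ on the gene's strand, with matches to any of these words, on either strand, in capitals. They show a pair of S phase genes that rose in kidney (Mcm5 and Mcm6) and 3 mitosis genes that fell in liver (Ccnb2, Cdc25b and Cdc20). Mcm5 lies at chr19:13488563-13488812 on the plus strand, Mcm6 at chr13:42404353-42404602 on the minus strand, Ccnb2 at chr8:79981659-79981908 on the minus strand, Cdc25b at chr3:138859923-138860172 on the plus strand and Cdc20 at chr5:137255800-137256049 on the minus strand.
Mcm5: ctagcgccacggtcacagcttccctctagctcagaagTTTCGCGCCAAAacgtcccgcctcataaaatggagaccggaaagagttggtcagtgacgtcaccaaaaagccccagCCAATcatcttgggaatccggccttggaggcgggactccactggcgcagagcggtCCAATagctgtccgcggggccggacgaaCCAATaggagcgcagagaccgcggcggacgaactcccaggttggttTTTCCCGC
Mcm6: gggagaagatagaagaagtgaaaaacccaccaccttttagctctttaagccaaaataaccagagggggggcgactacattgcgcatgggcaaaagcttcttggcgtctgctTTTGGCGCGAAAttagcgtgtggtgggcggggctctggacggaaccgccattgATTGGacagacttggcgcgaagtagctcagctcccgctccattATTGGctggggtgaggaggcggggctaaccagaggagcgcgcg
Ccnb2: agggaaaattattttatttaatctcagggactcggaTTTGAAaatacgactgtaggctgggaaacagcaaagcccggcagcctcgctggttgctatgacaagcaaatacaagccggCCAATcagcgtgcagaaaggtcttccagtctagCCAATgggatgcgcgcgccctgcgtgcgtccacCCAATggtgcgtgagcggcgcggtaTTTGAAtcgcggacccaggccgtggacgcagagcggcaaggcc
Cdc25b: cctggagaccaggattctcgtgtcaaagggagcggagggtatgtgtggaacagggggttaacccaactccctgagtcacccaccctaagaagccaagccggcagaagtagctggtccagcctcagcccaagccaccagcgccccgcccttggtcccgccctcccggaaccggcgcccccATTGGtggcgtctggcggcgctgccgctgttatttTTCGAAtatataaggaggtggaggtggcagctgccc
Cdc20: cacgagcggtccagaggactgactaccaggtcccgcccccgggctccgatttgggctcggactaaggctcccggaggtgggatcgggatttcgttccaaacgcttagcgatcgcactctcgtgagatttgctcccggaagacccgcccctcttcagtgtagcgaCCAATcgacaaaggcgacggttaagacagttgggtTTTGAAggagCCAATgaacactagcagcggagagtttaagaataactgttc
The stretches of Mcm5 and Mcm6 hold 3 and 2 matches to E2F words and no CHR, and those of Ccnb2, Cdc25b and Cdc20 hold 2, 1 and 1 CHR words and no E2F word. This split did not hold for all members. Of those that rose in kidney, Mcm2 had 2 CHR words, and Pcna, Tk1 and Ccne1 had no E2F word. Of those that fell in liver, Cdk1 had 1 E2F word and Ccnb1, Kif20a, Aurka and Tk1 had no CHR. Tk1 thus rose in kidney and fell in liver, read from a different probe set in each. The CCAAT box occurred 3 times in Mcm5, 2 times in Mcm6, 3 times in Ccnb2, once in Cdc25b and 2 times in Cdc20.

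All values are log2 expression values of the deposited arrays. The arrays' markers were checked first, and 2 arrays went against their labels. Both were labelled as 24 h after D5W and sorafenib. Replicate 1 of the liver group had kidney markers at 13.09 and liver markers at 5.95, and replicate 4 of the kidney group had liver markers at 14.54 and kidney markers at 7.55. Both were left out, and those groups held 3 rats. On the 286 arrays kept, the median of the own tissue's markers was 14.19 to 14.43 in heart. It was 12.72 to 13.44 in kidney and 14.7 to 14.83 in liver, while liver markers reached 9.7 on a kidney array and 8.41 on a heart array. A difference here is a difference of group means on the log2 scale with its standard error from limma, and a gene is called changed where limma's Benjamini-Hochberg adjusted p, over all genes tested in the tissue, was under 0.05.

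In rats given D5W and a vehicle, the members ranged from bright to dim, and the values varied most in liver. Pcna averaged 11.12 ± 0.18 in heart, 11.59 ± 0.11 in kidney and 10.34 ± 0.2 in liver (SD, n = 24 rats over the 3 times). Cdk1, the kinase of mitosis, averaged 7.87 ± 0.67 in heart, 8.54 ± 0.28 in kidney and 7.97 ± 0.82 in liver. Mki67, the gene of the proliferation marker Ki-67, averaged 7.86 ± 0.58, 7.83 ± 0.29 and 6.49 ± 0.78 in the same order. These levels were not compared between tissues, because the median of an array's values lay at 7.32 to 7.81 in kidney against 6.63 to 6.69 in heart and 6.66 to 6.78 in liver, and the sources used here do not say if all tissues were normalized in a single run.

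Within groups, most members rose and fell together from rat to rat. Over the deviations from group means, the median correlation of a pair of members was 0.44 in heart (96 arrays, 630 pairs), 0.44 in kidney (95 arrays, 630 pairs) and 0.43 in liver (95 arrays, 595 pairs). Correlations over 0.3 were found for 72.1%, 69.7% and 67.9% of the pairs. Some members followed the others little. In heart, kidney and liver the median correlation with the other members was 0.14, 0.35 and 0.13 for Cdc25b and 0.27, 0.14 and 0.21 for Tyms. In kidney it was 0 for Kif11 and 0.08 for Melk. Such values share the tissue piece, the labelling and the array. Of genes outside the list, Arhgap11a followed the members' mean most closely in heart (r = 0.91) and kidney (r = 0.92), and Ect2, which guides cytokinesis, in liver (r = 0.94). Pclaf, a partner of Pcna, and Spc25, a kinetochore protein, each reached 0.91 in liver. Because most members moved together, a count of members is not a count of independent results.

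In liver at 24 h, 16 of 35 members were lower after oxaliplatin than after D5W and 0 were higher, over both oral vehicles together (8 rats against 8). Over all genes tested, 4.69% were called lower. The members' median difference was -0.43, against -0.02 for all genes, and 32 of 35 lay below 0. The genes that fell were mainly those of mitosis. Among cyclins, Cdk1 and its regulators 7 of 8 fell (median -0.94), both partners of the anaphase promoting complex fell (median -0.76), as did 2 of 5 mitotic kinases and checkpoint genes and 4 of 10 genes for chromosomes, spindle and cytokinesis. Of the 7 licensing and clamp genes, 0 were called (median -0.14).

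Cdc25b, the phosphatase that activates Cdk1, stood at 6.38 to 7.09 after oxaliplatin (median 6.81) and at 7.71 to 8.88 after D5W (median 8.05). No oxaliplatin rat reached the lowest D5W rat. The difference was -1.37 ± 0.17 (limma adjusted p = 1.28e-08). The groups also stayed apart when all 4 oral doses were pooled, with 16 oxaliplatin rats at 6.38 to 7.25 and 15 D5W rats at 7.67 to 8.88, and Cdc25b was the only member of which this was so. The 4 oral doses gave -1.41 with water, -1.33 with F68, -1.27 with sunitinib and -1.05 with sorafenib.

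Cdkn3, a phosphatase that acts on the cyclin-dependent kinases, ranged from 5.39 to 8.39 after oxaliplatin (median 7.22) and from 7.77 to 9.45 after D5W (median 8.91). It fell by 1.47 ± 0.34 (limma adjusted p = 0.00414), the largest difference among the members, and the groups overlapped. Ccnb2, cyclin B2, ranged from 6.48 to 7.9 against 7.05 to 8.92 (medians 6.94 and 8.36) and fell by 1.06 ± 0.26 (limma adjusted p = 0.0067). Ccna2, cyclin A2, ranged from 4.22 to 6.19 against 5.3 to 7.38 (medians 5.43 and 6.32) and fell by 1.05 ± 0.25 (limma adjusted p = 0.00498). All but 1 of the Ccna2 values after oxaliplatin lay under 6, the level used as the filter, and no measure of background was used here, so the size of that difference is uncertain. For both cyclins the D5W rats spread widely, and the lowest of them lay within the oxaliplatin range.

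Mki67 ranged from 5.11 to 6.02 after oxaliplatin (median 5.63) and from 5.61 to 7.69 after D5W (median 6.44), a difference of -0.98 ± 0.22 (limma adjusted p = 0.00334), also with all but 1 of the oxaliplatin values under 6. Cdc20, the activator of the anaphase promoting complex, ranged from 6.4 to 7.57 against 6.89 to 8.75 (medians 7.02 and 7.69) and fell by 0.83. The other members that fell were Cdk1 (-0.83), Kif20a (-0.79), a kinesin of cytokinesis, Ube2c (-0.69), Ccnb1 (-0.65), Aurkb (-0.61), Racgap1 (-0.61), Birc5 (-0.52), Tk1 (-0.51), Aurka (-0.50) and Cks2 (-0.43), with limma adjusted p values from 0.000456 (Tk1) to 0.0493 (Aurka). The helicase gene Mcm5 stood at 7.21 to 7.87 against 7.17 to 8.29 and was not called. Top2a (-0.41, limma adjusted p = 0.118) and Mcm6 (-0.37, limma adjusted p = 0.312) were not called either, and Mcm4 and Tyms differed by 0.09 and 0.12.

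The size of the liver difference depended on the control rats. D5W rats given F68 had the highest group mean over the members at 24 h, 7.84 ± 0.24 (SD, n = 4), against 7.38 ± 0.39 with water (n = 4), 7.27 ± 0.05 with sunitinib (n = 4) and 7.32 ± 0.25 with sorafenib (n = 3). After oxaliplatin the means were 7.18 ± 0.36, 7.09 ± 0.14, 6.92 ± 0.05 and 7.27 ± 0.28 in the same order (n = 4 each). The members' median difference was -0.66 with F68 (35 of 35 below 0), -0.19 with water (27), -0.22 with sunitinib (31) and -0.08 with sorafenib (22). With water alone 1 member was called, but that fit compared 4 rats with 4. The share of all genes called with water alone was not counted, so this count cannot be set against all genes. Leaving out 1 array gave 8 to 21 called members, and the 8 stood when any of 3 arrays was dropped: replicate 2 of D5W then water, replicate 3 of D5W then F68, or replicate 4 of oxaliplatin then F68.

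Markers of other cells moved in the same liver comparison. Of 10 macrophage markers 7 fell (median -0.44), with a mean level of 9.92 to 10.63 per rat after oxaliplatin against 10.51 to 11 after D5W. Of 6 markers of erythroid cells, which divide as they mature, 4 fell (median -0.70), with levels of 8.53 to 8.82 against 9.21 to 9.5, which did not overlap. Of 9 lymphocyte markers 1 fell, of 9 fibroblast markers 0 fell, and of 10 liver markers 0 moved (median -0.01). Their part in the members' difference was not tested. The difference of the 3′ and 5′ beta-actin controls, a measure of RNA quality, was 0.77 to 0.88 after oxaliplatin and 0.75 to 0.9 after D5W.

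**Figure D1:**
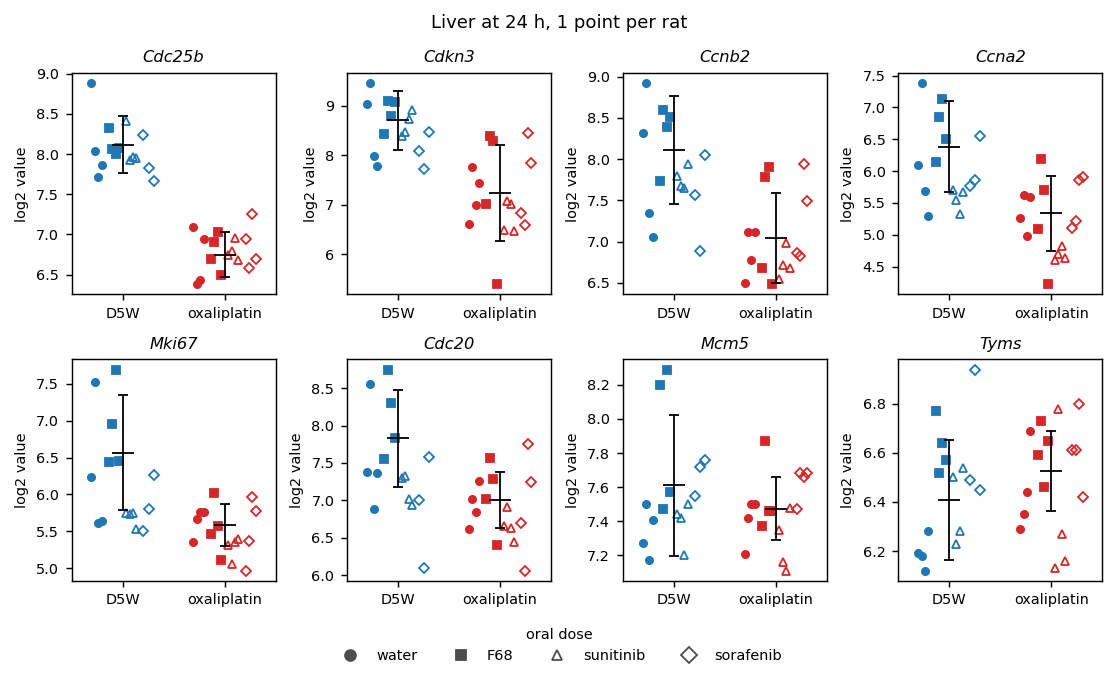
Log2 values of 8 genes in liver at 24 h (vertical axes, each with its own scale), 1 point per rat, for D5W (blue) and oxaliplatin (red), with the oral dose as the symbol (filled for the vehicles, open for the drugs). The bar and whiskers are the mean and SD over the 8 vehicle rats, and Cdc25b is the panel in which the 2 colours do not overlap.

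Genes of the same processes outside the list were counted in the same liver comparison. Of 47 other replication and mitosis genes 10 fell and 0 rose, among them Spc24 (-1.05), a kinetochore protein, Ect2 (-1.02), Cdca3 (-0.64), Pttg1 (-0.57), the securin that holds sister chromatids together, and Kif22 (-0.50). Of 37 genes of cell-cycle control 2 rose, the p53 targets Cdkn1a (0.89) and Ccng1 (0.48), and 2 fell, E2f2 (-0.42) and Lin37 (-0.36).

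In kidney at 24 h, 9 of 36 members were higher after oxaliplatin and 3 were lower, where 5.61% of all genes were called higher and 2.19% lower. The genes that rose were those of S phase. Of the 7 licensing and clamp genes 6 rose (median 0.27), and of 3 nucleotide supply genes 2 rose (median 0.40). Of 6 mitotic kinases and checkpoint genes and of 10 genes for chromosomes, spindle and cytokinesis, 0 were called. The 3 that fell, Cdc25b, Ccnb1 and Cdc20, all act in mitosis and were also among those that fell in liver.

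Tyms, thymidylate synthase, stood at 8.36 to 8.73 after oxaliplatin (median 8.45) and at 7.58 to 7.88 after D5W (median 7.76). The groups did not overlap, and the difference was 0.78 ± 0.08 (limma adjusted p = 1.16e-12). Over all 4 oral doses the 16 oxaliplatin rats lay at 8.25 to 8.73 and the 15 D5W rats at 7.5 to 7.94, again with no overlap. The 4 oral doses gave 0.96 with water, 0.6 with F68, 0.96 with sunitinib and 0.6 with sorafenib. Within kidney groups Tyms followed the other members little (median correlation 0.14), so its rise may not stand for them.

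Mcm6 ranged from 8.15 to 9.2 after oxaliplatin and from 7.69 to 8.44 after D5W (medians 8.6 and 7.95), a difference of 0.62 ± 0.11 (limma adjusted p = 2.44e-05). Mcm3 ranged from 7.87 to 8.82 against 7.64 to 8.36 (medians 8.29 and 7.82) and rose by 0.44 ± 0.09 (limma adjusted p = 0.000756). Tk1, thymidine kinase, ranged from 8.94 to 9.47 against 8.65 to 9 (medians 9.14 and 8.81) and rose by 0.40 ± 0.07 (limma adjusted p = 8.51e-05). In each of the 3 genes the upper oxaliplatin rats lay above every D5W rat and the lower ones overlapped them. Mcm4 (0.30), Mcm2 (0.27), Ccne1 (0.26), the cyclin of S phase entry, Mcm5 (0.25) and Pcna (0.16) rose by less, with limma adjusted p values from 0.00988 (Mcm2) to 0.0386 (Mcm5), and Mcm7 (0.13, limma adjusted p = 0.168) was not called.

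Cdc25b in kidney ranged from 6.26 to 7.24 after oxaliplatin and from 6.67 to 8.03 after D5W (medians 6.57 and 7.54), a difference of -0.74 ± 0.15 (limma adjusted p = 0.000423). Ccnb1, cyclin B1, ranged from 7.8 to 8.33 against 8.27 to 8.71 and fell by 0.32, and Cdc20 also fell by 0.32. Most oxaliplatin rats lay below the D5W range for Ccnb1, but the ranges met.

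The rise of the helicase genes differed by vehicle. With water, oxaliplatin minus D5W was 0.92 for Mcm6, 0.67 for Mcm3, 0.61 for Mcm4 and 0.54 for Mcm5. With F68 it was 0.33, 0.21, -0.02 and -0.04. With F68 alone, 4 rats against 4, 2 members were called, and the share of all genes called was not counted. Whether the vehicles differed in this was not tested. With sunitinib the values were 0.68, 0.56, 0.54 and 0.42, and with sorafenib 0.54, 0.38, 0.27 and 0.39. In the same comparison 2 of 9 macrophage and 2 of 5 erythroid markers fell, with mean levels of 8.55 to 9.09 against 8.78 to 9.22 and of 9.67 to 10.25 against 9.95 to 10.65, and 0 of 9 endothelial and 0 of 10 fibroblast markers moved. Liver markers were at 6.87 to 7.75 after oxaliplatin and 7.29 to 9.39 after D5W, with 0 of 8 called, and the part of any of these was not tested.

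**Figure D2:**
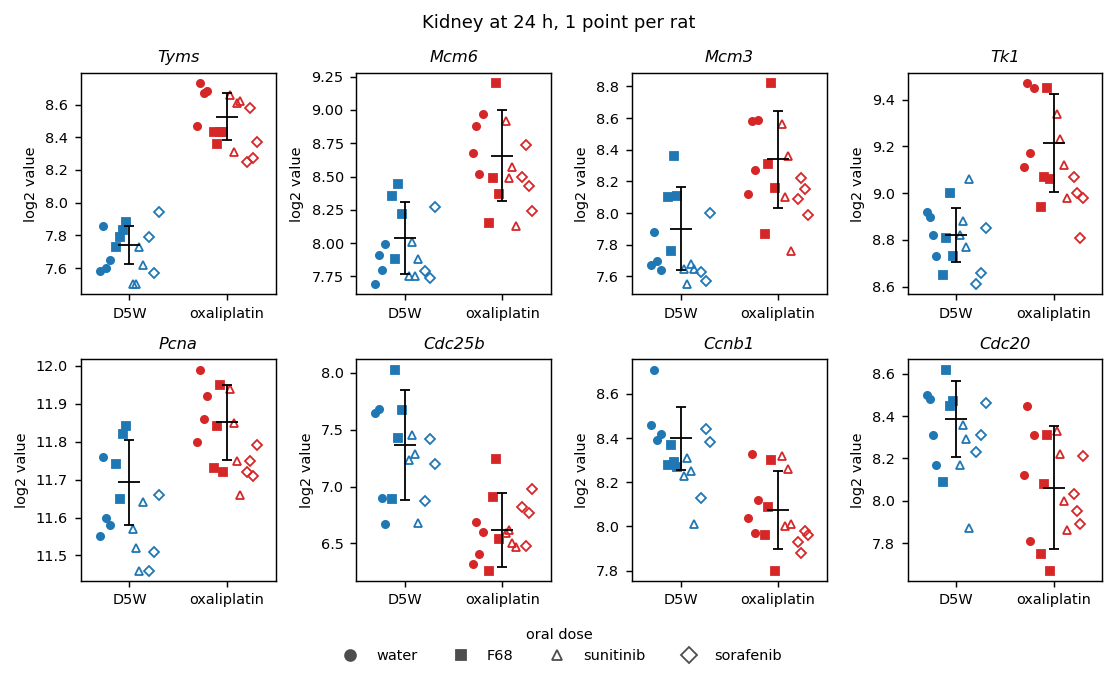
Log2 values of 8 genes in kidney at 24 h (vertical axes, each with its own scale), drawn as for liver: 1 point per rat, D5W in blue and oxaliplatin in red, the oral dose as the symbol, and the mean and SD over the 8 vehicle rats. Tyms separates all oxaliplatin rats from all D5W rats, and Cdc25b lies lower after oxaliplatin.

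Outside the list, 11 of 48 other replication and mitosis genes rose in kidney at 24 h and 1 fell. Cdt1 (0.53), which loads the helicase, Asf1b (0.44), Pbk (0.39), Plk4 (0.36) and Orc6 (0.35), a subunit of the origin recognition complex, rose, and Pttg1 fell by 0.29. Of 38 genes of cell-cycle control 9 rose, among them Cdkn1a (1.46), the inhibitor p21, Ccng1 (1.28), Ccne2 (0.55), Chek1 (0.46), a checkpoint kinase, and Wee1 (0.30), and 1 fell, Tfdp2 (-0.23).

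In heart at 24 h, oxaliplatin lowered 2 of 36 members, where 4.75% of all genes were called lower, a share close to the members', and 0 members were higher, where 14.5% of all genes were. Cdc25b stood at 7.78 to 8.6 after oxaliplatin (median 8.17) and at 8.73 to 9.16 after D5W (median 8.96). The groups did not overlap, and the difference was -0.75 ± 0.13 (limma adjusted p = 5.66e-06). It was -0.71 with water, -0.79 with F68, -0.58 with sunitinib and -0.24 with sorafenib. Mcm3 stood at 6.85 to 7.35 against 7.12 to 7.33 and fell by 0.21 ± 0.07 (limma adjusted p = 0.0307), with overlap. Mcm3 passed no longer when replicate 1 of oxaliplatin then water, replicate 3 of oxaliplatin then F68, replicate 2 of D5W then water or replicate 3 of D5W then F68 was dropped. Cdc25b was thus lower at 24 h in all 3 tissues. In the same heart arrays 7 of 8 erythroid markers fell (8.41 to 8.75 against 8.83 to 9.45) and 5 of 8 liver markers fell (6.16 to 6.41 against 6.19 to 7.95). The beta-actin difference was 0.37 to 0.62 after oxaliplatin and 0.4 to 0.81 after D5W. With it as a covariate Cdc25b and Mcm3 were both still called, and the part of the markers was not tested.

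Before 24 h oxaliplatin changed few members over the vehicle rats. With all 4 oral doses pooled, 5 members were called in kidney at 1 h and 7 at 6 h, 3 in heart at 6 h, and 1 and 3 in liver at 1 and 6 h. Pooling used more rats, and the share of all genes called with it was not counted. The pooled counts can thus not be set against all genes. Over the vehicle rats at 1 h, 0 were called in heart (1.23% of all genes, either way) and liver (3.46%), with 1 and 3 at an unadjusted p under 0.05, and in kidney Pcna rose by 0.15 (4.45% of all genes called higher). The Pcna call was lost when replicate 2 of D5W then water, or replicate 1 of oxaliplatin then water or of oxaliplatin then F68, was dropped. At 6 h, 0 were called in heart (0.866%), with 5 at an unadjusted p under 0.05, and Tyms rose by 0.33 in liver (6.41 to 6.92 against 6.1 to 6.5; 6.72% of all genes called higher). In kidney at 6 h Kif11 (0.42), a spindle motor, Pcna (0.24) and Tyms (0.21) rose (12.7% of all genes called higher) and Ube2c fell by 0.40 (7.88% called lower). Kif11 ranged from 10.82 to 11.44 against 10.32 to 11.26, and Ube2c from 7.94 to 8.74 against 8.53 to 9.04, both with overlap. Kif11 was read from another probe set in kidney than in heart and liver. Its median correlation with the other members was 0 in kidney, against 0.31 in heart and 0.28 in liver, so its rise may not stand for the members.

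Changes of the oxaliplatin effect between times were tested as contrasts. From 6 to 24 h the effect became lower in liver for 7 members (7.28% of all genes): Cdc25b (-1.16), Ccna2 (-1.06), Aurka (-0.84), Aurkb (-0.62), Birc5 (-0.61), Tk1 (-0.48) and Pcna (-0.30). That liver count was 3 or 4 without each of 11 of the 32 arrays. In kidney it became higher for Mcm6 (0.63), Tyms (0.57), Mcm3 (0.45) and Tk1 (0.42), where 6.26% of all genes did, and lower for Cdc25b (-0.72), where 5.03% did. In heart it became lower for Cdc25b alone (-1.14; 2.55%). From 1 to 6 h it rose for Tyms in liver (0.46; 0.886%), a call lost without each of 20 of 32 arrays, and in kidney (0.41; 5.25%), fell for Ube2c in kidney (-0.71; 2.75%), and changed for 0 members in heart (0.892%), with 3 at an unadjusted p under 0.05. Times were on arrays with different code numbers, so a time and its array code cannot be told apart.

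**Figure D3:**
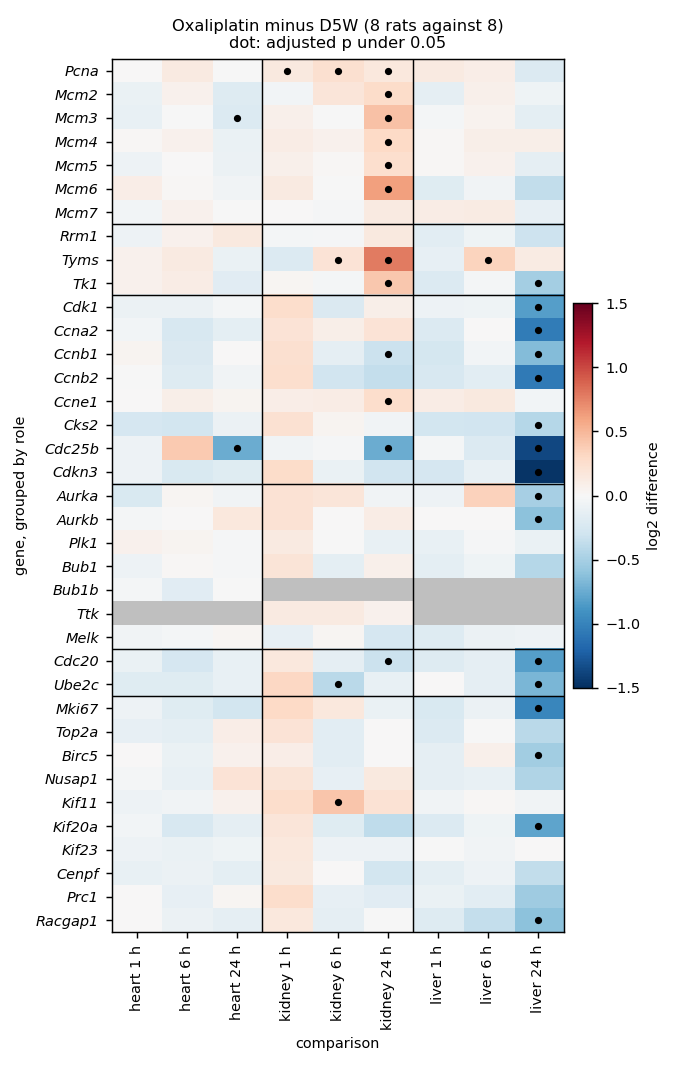
Log2 difference between oxaliplatin and D5W (colour; red is higher after oxaliplatin) for 37 members (rows, in blocks by role) in 3 tissues at 3 times (columns), over both vehicles. A dot marks an adjusted p under 0.05 and grey a gene not tested, and the 24 h columns show the licensing genes red in kidney and the mitosis genes blue in liver.

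The difference between tissues at 24 h was tested in a fit over both tissues of a pair, for members read from the same probe set in both, a comparison added after the data were seen. The same rats gave all 3 tissues, but the labels do not tie arrays to rats, so the fit treats them as separate. Kidney minus liver was above 0 for 12 of 32 members (4.59% of all genes), from 0.36 for Pcna to 1.25 for Ccna2 (a gene mostly under 6 in liver after oxaliplatin), with Cdkn3 at 1.17, Mcm6 at 0.99 and Cdk1 at 0.92. Kidney minus heart was above 0 for 6 of 34 (2.45%), with Tyms at 0.88, Mcm6 at 0.67, Mcm3 at 0.65 and Tk1 at 0.57. Heart minus liver was above 0 for 10 of 33 (12.6%), with Cdkn3 at 1.29, Ccnb2 at 1.02 and Ccna2 at 0.90. Cdc25b, lower in every tissue, fell further in liver than in heart, by 0.62. With water alone 1 member was called for kidney minus liver and 2 for heart minus liver, and with F68 alone 1 and 1. For kidney minus heart 0 were called with F68 alone and 10 over all 4 oral doses. Single vehicles used fewer rats and pooling used more. The share of all genes called was counted only over both vehicles, so these counts cannot be set against all genes. The count for kidney minus liver was 6 without the liver array of D5W then F68 replicate 3 and 7 without replicate 2 of D5W then water or replicate 4 of oxaliplatin then F68. Without either of the last 2 arrays the count for heart minus liver was 5, and it was 16 when replicate 3 of D5W then water or replicate 2 of oxaliplatin then F68 was dropped.

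Sorafenib lowered members at 24 h in heart when given after D5W: 16 of 36 fell against F68 and 0 rose (4 rats against 4), where 5.65% of all genes were called lower. Of 7 licensing and clamp genes 6 fell, of 8 cyclins and Cdk1 regulators 4 fell, of 10 chromosome and spindle genes 5 fell, and of 6 mitotic kinases and checkpoint genes 0 fell. The members' median was -0.36, against -0.03 for all genes. The groups of 11 members did not overlap, but overlap was not counted over all genes, so that count has no share to be set against. Cdk1 stood at 6.36, 5.47, 6.36 and 5.85 with sorafenib and at 6.6, 7.14, 7.43 and 7.51 with F68, all sorafenib rats below all F68 rats, a difference of -1.15 ± 0.24 (limma adjusted p = 0.000902). Mki67 stood at 6.47, 6.16, 6.71 and 6.25 against 6.97, 7.34, 7.74 and 7.5, a difference of -0.99 ± 0.21 (limma adjusted p = 0.00102). Mcm6 stood at 6.76, 6.24, 6.53 and 6.77 against 7.34, 6.94, 7.62 and 7.2, a difference of -0.70 ± 0.14 (limma adjusted p = 0.000451). Each of the 3 was separated in every rat. The Cdk1 values of 5.47 and 5.85 with sorafenib lay under 6, the level used as the filter, so the size of its difference is uncertain. Cdkn3 (-1), Prc1 (-0.86), a protein of the spindle midzone, Cks2 (-0.83), Ccna2 (-0.80) and Pcna (-0.41) also fell.

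The same heart arrays differed in other ways. Of 10 macrophage markers 6 fell, with mean levels of 7.59 to 8.23 with sorafenib against 8.33 to 9.04 with F68, and of 9 endothelial markers 5 fell and 1 rose, with 9.17 to 9.27 against 9.32 to 9.49. Liver markers were at 6.26 to 6.85 against 6.72 to 7.95. The 3′ and 5′ beta-actin difference was 0.13 to 0.37 against 0.4 to 0.5, and with it as a covariate 6 members were called. When replicate 3 of F68 after D5W or replicate 2 or 4 of sorafenib after D5W was dropped, 8 were called, and 9 were when replicate 4 of F68 was.

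After oxaliplatin, sorafenib at 24 h changed 0 of 36 members in heart (1.72% of all genes, either way), with 1 at an unadjusted p under 0.05. Cdk1 stood at 6.96, 6.66, 6.76 and 6.81 with sorafenib and at 7.28, 7.33, 6.73 and 6.54 with F68, which overlapped. The difference between the sorafenib effects after oxaliplatin and after D5W, tested as an interaction, was called for 0 members and for 0% of all genes in heart at 24 h, with 15 members at an unadjusted p under 0.05, so the effects were not shown to differ.

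In liver at 24 h sorafenib after D5W lowered 14 of 35 members and raised 2 (3 rats against 4), but 48.2% of all genes were called lower and 19.1% higher, so the members did not stand out in number. The paper flagged all liver arrays of this sorafenib group, the 3 kept among them. Their intensity distributions differed from the other arrays and their probe-level standard errors were higher. It proposes that the response itself is a likely reason but asks for further quality checks. Mcm6 fell by 1.34, from 6.93, 7.18, 8.03 and 8.81 with F68 to 5.78, 6.28 and 7.15 with sorafenib. Cdc20 (-1.21), Rrm1 (-1.08), Cdk1 (-1.07) and Mcm2 (-1.07) also fell, and Kif23 (0.27) and Plk1 (0.25) rose. The median over all genes was itself -0.24 in this comparison, and -0.50 over the members. These F68 rats are the ones with the highest mean over the members, and they are also part of the controls of the oxaliplatin comparison. Without D5W then sorafenib replicate 3, 8 members were called. After oxaliplatin 0 were called (1.38%), with 1 at an unadjusted p under 0.05. The interaction was above 0 for 9 of 35 members, from 0.59 for Mcm7 to 1.5 for Mcm6. It was above 0 for 28.7% of all genes, so the members' share was no larger. Of those arrays, leaving out D5W then sorafenib replicate 3 gave 4, leaving out D5W then F68 replicate 3 or oxaliplatin then F68 replicate 4 gave 5, and leaving out D5W then sorafenib replicate 4 or oxaliplatin then sorafenib replicate 2 gave 14. In the comparison after D5W, 9 of 10 macrophage markers fell (9.85 to 10.13 against 10.51 to 11) and 7 of 9 endothelial markers fell (8.18 to 8.25 against 8.68 to 8.83), and the beta-actin difference was 0.64 to 0.76 against 0.77 to 0.85. Their part in the members' differences was not tested.

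In other comparisons sorafenib changed few members. After D5W in heart, Rrm1 fell by 0.26 at 1 h (9.63% of all genes called lower), a call lost without each of 5 of the 8 arrays. At 6 h Tyms rose by 0.45 (18.2% called higher) while Ccnb1, Plk1 and Mcm7 fell (23.7% called lower), and 1 or 2 of these 4 calls were made without D5W then F68 replicate 1 or D5W then sorafenib replicate 3 or 4. At that time the beta-actin difference was 0.49 to 0.77 with sorafenib and 0.2 to 0.33 with F68, with no overlap, and with it as a covariate 4 were called, Mcm7 not among them. After D5W in kidney, 0 members were called at 1 h (0% of all genes), 6 h (0.0731%) and 24 h (0.203%), with 3, 1 and 7 at an unadjusted p under 0.05. In liver 0 were called at 1 h (0.0689%) and 6 h (0.0344%), with 20 and 1 at an unadjusted p under 0.05. At 1 h in liver 30 of 35 members lay below 0, with a median of -0.47, against 44.3% and 0.02 for all genes. The mean over the members spread from 7.25 to 8.35 in these F68 rats (n = 4) and from 7.27 to 7.57 with sorafenib (n = 4). The part of that spread was not tested. After oxaliplatin, over the 3 times together, 1 call was made in heart (Tyms at 6 h, -0.37; 3.81% of all tests), 0 in kidney (0.184%) and 0 in liver (0.591%).

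Sunitinib changed hardly any members. Over 6 comparisons with water, at 3 times after D5W or oxaliplatin, 2 calls were made in heart (5.9% of all tests), 0 in kidney (0.0447%) and 0 in liver (0.161%), with the members at an unadjusted p under 0.05 numbering 7 at most in any kidney comparison and 3 at most in any liver comparison. Both calls were at 24 h after D5W: Ccne1 rose by 0.27 (19% of all genes called higher) and Tyms fell by 0.52 (6.42% called lower). The beta-actin difference was 0.37 to 0.57 in these sunitinib rats and 0.71 to 0.81 in the water rats, with no overlap, and with it as a covariate both were still called. The F test over the 3 times for a different sunitinib effect after oxaliplatin called 1 member in heart (17.2% of all genes), 0 in kidney (0%) and 0 in liver (0%). For sorafenib it called 2 in heart (18.5%), 0 in kidney (0.0162%) and 4 in liver (22.2%). In none of these tests was the members' share larger than that of all genes. At single times in heart, the sorafenib interaction was above 0 for Rrm1 at 1 h (4.75% of all genes) and below 0 for Tyms at 6 h (4.74%), and the sunitinib interaction at 24 h was below 0 for Mcm6 (11.5%) and above 0 for Tyms (2.88%). With 1 of 36 members each, these shares are no larger than those of all genes.

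In heart, rats given F68 had lower members than rats given water at all 3 times (8 rats against 8). At 1 h 26 of 36 fell (6.51% of all genes called lower), at 6 h 30 fell (10.3%) and at 24 h 13 fell (3.76%), and 0 rose at any of them. The members' medians were -0.30, -0.44 and -0.24, against -0.01, -0.03 and 0.02 for all genes. At 6 h Cdkn3 fell by 1.08 ± 0.18 (limma adjusted p = 8.79e-05), from 7.73 to 8.69 with water to 6.26 to 7.99 with F68 (medians 8.13 and 7.26). Cdk1 fell by 0.88 ± 0.17 (limma adjusted p = 0.000382), from 8.04 to 8.7 with water to 6.34 to 8.11 with F68 (medians 8.21 and 7.61). Mki67 fell by 0.78 ± 0.15 (limma adjusted p = 0.000327), from 7.83 to 8.58 with water to 6.59 to 7.97 with F68 (medians 8.1 and 7.56). In each of the 3 genes most F68 rats lay below the water range and the ranges met at the edge. All role groups took part at 6 h: 6 of 7 licensing and clamp genes, 6 of 8 cyclins and Cdk1 regulators, 4 of 6 kinases and checkpoint genes and 10 of 10 chromosome and spindle genes fell.

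The rats given sorafenib, dosed with the F68 rats, also had low means over the members, and those given sunitinib had high ones. At 1 h the group means in heart were 7.41 and 7.47 with F68 and 7.41 and 7.46 with sorafenib (after D5W and after oxaliplatin), against 7.86 and 7.7 with water and 7.76 and 7.9 with sunitinib. At 6 h they were 7.28 and 7.22 and 7.33 and 7.36, against 7.76 and 7.72 and 7.66 and 7.66, and at 24 h 7.14 and 6.95 and 6.72 and 6.94, against 7.3 and 7.35 and 7.23 and 7.26. So the split lay between the oral vehicles with or without drug, and vehicle and dosing day cannot be told apart. The number in the array code also followed the oral dose, so the code cannot be told apart from it either.

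Other values moved with this heart difference. At 1 h 4 of 7 lymphocyte markers were lower with F68 (6.31 to 6.54 against 6.46 to 8.41) and 3 of 10 macrophage markers were, while at 6 h 0 of either were and 4 of 10 fibroblast markers fell, as 4 did at 24 h. The beta-actin difference was 0.27 to 0.42 with F68 against 0.38 to 0.53 with water at 1 h, 0.2 to 0.33 against 0.29 to 0.44 at 6 h, and 0.37 to 0.5 against 0.4 to 0.81 at 24 h. With that difference as a covariate 5 members were called at 1 h and 1 at 24 h. Dropping 1 array at 1 h gave 9 (replicate 4 of oxaliplatin then water), 11 and 15 (replicates 4 and 1 of D5W then F68) or 16 (replicate 1 or 3 of oxaliplatin then F68). At 24 h dropping replicate 1 of D5W then F68 or replicate 4 of oxaliplatin then water gave 8.

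**Figure D4:**
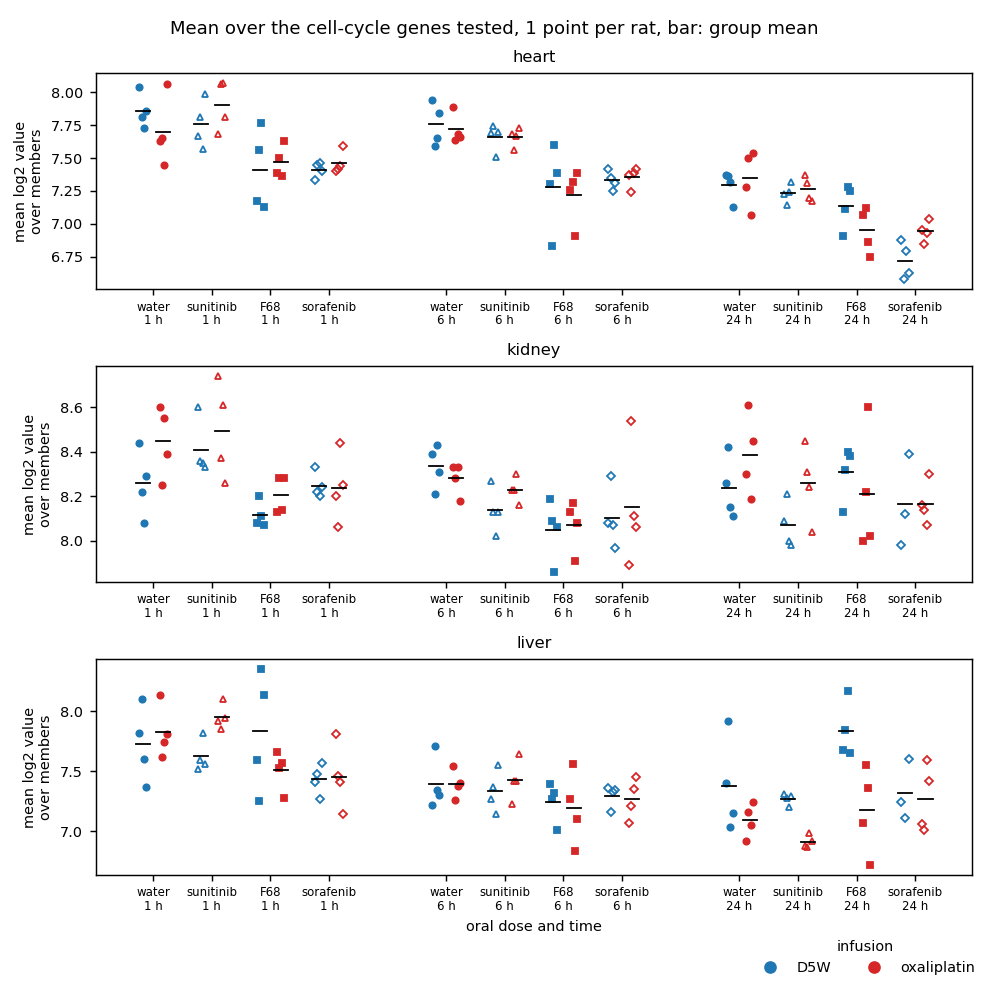
Mean log2 value over the members tested (vertical axis) on each array of heart, kidney and liver, by oral dose and time, 1 point per rat, with D5W in blue, oxaliplatin in red and a bar at the group mean. In heart at 1 and 6 h the group means with F68 and sorafenib, at 7.22 to 7.47, lie below those with water and sunitinib, at 7.66 to 7.9. Single rats overlap: at 1 h D5W then F68 reaches 7.77 and oxaliplatin then water goes down to 7.45.

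In kidney the members were also lower with F68 at the early times. There 11 of 36 members were lower with F68 at 1 h (7.81% of all genes called lower), 16 at 6 h (4.98%) and 0 at 24 h (0.276% either way), with 2 at an unadjusted p under 0.05 at 24 h. At 6 h Ccnb2 (-0.62), Cdkn3 (-0.62), Mki67 (-0.58) and Cdk1 (-0.42) fell, with Cdk1 at 7.46 to 8.44 with F68 and 8.27 to 8.84 with water, which overlapped. The count was 5 at 1 h without oxaliplatin then water replicate 1 and 6 without oxaliplatin then F68 replicate 3, and at 6 h dropping replicate 3 gave 6 for D5W then F68, 8 for oxaliplatin then F68 and 9 for oxaliplatin then water. At 1 h 5 of 9 endothelial markers were higher with F68 (9.28 to 9.51 against 9.11 to 9.24). In liver 0 were called at 1 h (0.852%), with 3 at an unadjusted p under 0.05, and Cdc25b fell by 0.56 at 6 h (0.843% called lower). At 24 h in liver Mcm3 (0.44), Kif11 (0.35), Mcm5 (0.34) and Plk1 (0.27) were higher with F68 (0.964% called higher), and the count was 1 when replicate 1 or 3 of D5W then F68 or replicate 2 of oxaliplatin then F68 was dropped, and 2 when replicate 1 of D5W then water or replicate 3 of oxaliplatin with either vehicle was. The Cdc25b call at 6 h was lost without each of 10 of the 16 arrays.

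Over time, the D5W rats given a vehicle changed too (8 rats at each time). In liver 22 of 35 members were lower at 6 h than at 1 h (3.45% of all genes called lower), and Ccne1 was higher by 0.24 (7.87% called higher). Ccnb2 fell by 1.16 ± 0.26 (limma adjusted p = 0.00151), from 7.91 to 9.62 at 1 h to 6.76 to 9.02 at 6 h (medians 8.9 and 7.53). Cdk1 fell by 1.15 ± 0.26 (limma adjusted p = 0.0017), from 7.54 to 9.68 to 6.75 to 8.2 (medians 8.3 and 7.3). Ccna2 fell by 1.12 ± 0.25 (limma adjusted p = 0.0013), from 5.89 to 7.92 to 5.27 to 6.62 (medians 6.79 and 5.7). The ranges of all 3 overlapped. The Ccna2 median at 6 h lay under 6, the level used as the filter, so the size of its fall is uncertain. By role, 6 of 8 cyclins and Cdk1 regulators, 4 of 5 kinases and checkpoint genes and 8 of 10 chromosome and spindle genes fell, and 0 of 7 licensing and clamp genes did (median 0.17). Of 10 macrophage, 6 erythroid and 9 lymphocyte markers, 0 were called in this comparison. At 24 h against 1 h, Cks2 fell by 0.43 (0.886%), with 0 to 3 members called when 1 array was left out, and of the other members 0 were called, with 11 members at an unadjusted p under 0.05.

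In kidney the licensing genes rose with time in vehicle rats. At 24 h against 1 h 7 members were higher (2.68% of all genes called higher), and they were all 7 licensing and clamp genes: Mcm6 (0.58), Mcm4 (0.55), Mcm2 (0.38), Mcm3 (0.37), Mcm5 (0.32), Mcm7 (0.22) and Pcna (0.16). Mcm6 stood at 7.69 to 8.44 at 24 h and 7.21 to 7.74 at 1 h (medians 7.95 and 7.44), and Mcm4 at 8.06 to 8.94 and 7.53 to 8.13 (medians 8.34 and 7.95). Both ranges overlapped. The beta-actin difference was 0.4 to 0.53 at 24 h and 0.48 to 0.6 at 1 h, and with it as a covariate 4 were called, Mcm3, Mcm5 and Mcm7 no longer. At 6 h against 1 h Kif11 was higher by 0.37 (0.885%), a call lost without each of 7 of the 16 arrays. In kidney the probe set of Kif11 did not follow the other members (median correlation 0). Of 9 macrophage, 5 erythroid and 10 fibroblast markers, 0 were called between 24 h and 1 h. In kidney at 24 h, the oxaliplatin rats thus had higher licensing genes than controls that themselves stood above the 1 h controls.

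In heart 6 members fell from 1 to 6 h (27.1% of all genes called lower, a larger share than of the members) and 29 from 1 to 24 h (32.6%), while Tyms rose by 0.32 (16.6% called higher). At 24 h Cks2 fell by 1 ± 0.18 (6.2 to 7.22 against 6.64 to 8.45), Cdkn3 by 0.95 ± 0.18 (6.32 to 7.56 against 6.94 to 8.58) and Ube2c by 0.94 ± 0.13 (7.2 to 7.97 against 7.89 to 9.31). Of these, Ube2c came closest to a separation of the times. The members' median was -0.40 against -0.05 for all genes. In the same comparison 7 of 10 macrophage markers fell (8.33 to 9.04 against 8.43 to 9.23), and the beta-actin difference was 0.4 to 0.81 at 24 h, 0.2 to 0.33 at 6 h and 0.29 to 0.53 at 1 h. With it as a covariate 1 member was called from 1 to 6 h. The count from 1 to 6 h was 3 without D5W then water replicate 1 or D5W then F68 replicate 2 or 3 of 1 h, and 11 without D5W then F68 replicate 4 of 1 h or replicate 3 of 6 h. Arrays of 1 h and 24 h carried different code prefixes, whose meaning is not stated, so time and array set cannot be told apart.

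**Figure D5:**
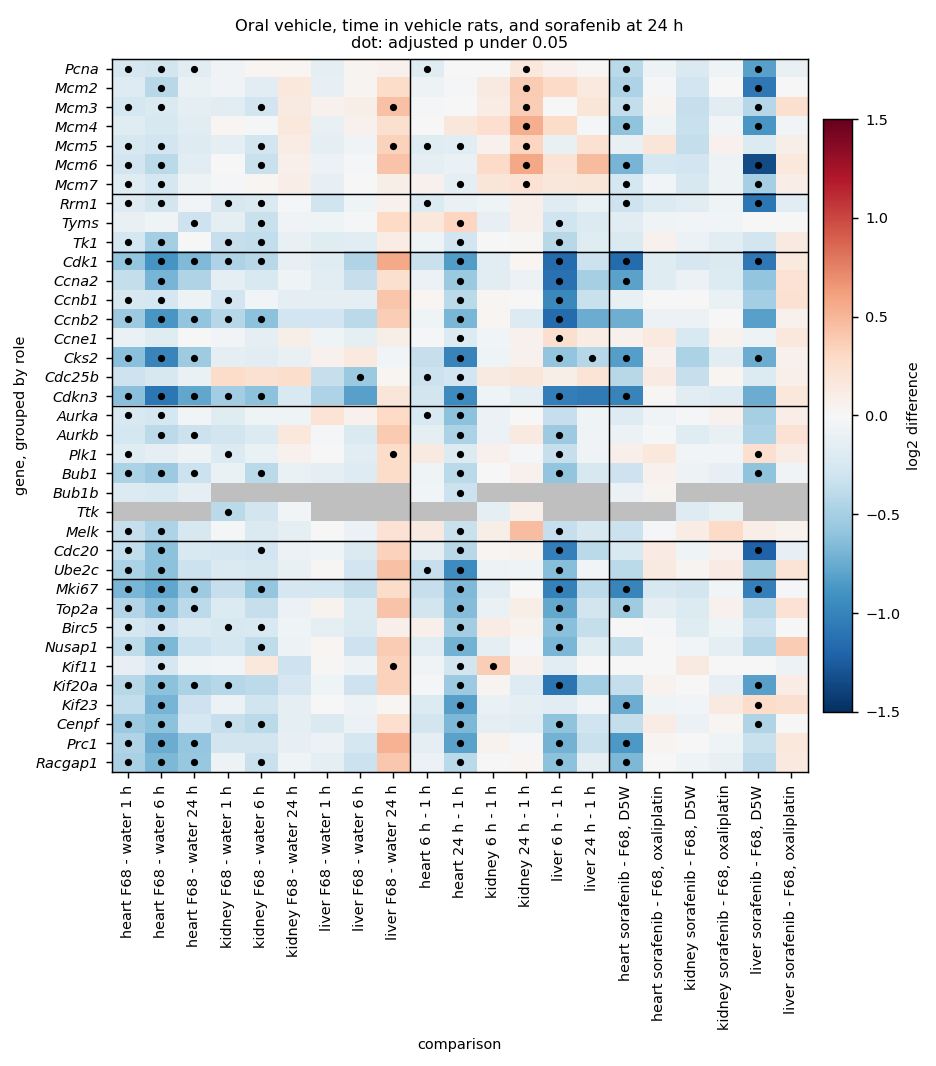
Log2 difference (colour; red is higher) for 37 members (rows, by role) in 3 tissues for F68 minus water at 1, 6 and 24 h, for 6 h and 24 h minus 1 h in vehicle rats, and for sorafenib minus F68 at 24 h after D5W or oxaliplatin (columns). A dot marks an adjusted p under 0.05 and grey a gene not tested, and the heart columns for F68 and for 24 h minus 1 h are blue over most members.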

How the data were processed

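Heart, kidney and liver of each rat were measured on Affymetrix whole-genome rat arrays. The deposited values are log2 expression values, which the authors made by robust multi-array averaging with background correction, quantile normalization and median polish. The submitters' text sets no test between groups, and the software version is not given in the sources used here. Of 31099 probe sets, 20832 have 1 gene symbol, 436 several and 9831 none, and only the first were used. In each tissue a gene was read from its brightest probe set and tested where its log2 value was over 6 on at least 4 arrays. In R 4.3.3, limma 3.58.1 was fitted per tissue with a mean for each of 24 groups, contrasts between group means, empirical Bayes variances and Benjamini-Hochberg adjustment over all genes tested, called under 0.05. The script was tested on simulated data with known changes. The number of arrays limits precision. Groups came from the labels. The 4 arrays of a group are from separate rats, replicate numbers follow the deposition order only, and 2 arrays whose markers went against their label were left out. Members and lists were chosen with earlier results of these data known. The text names members called with the largest differences, up to 5 in each direction for outside genes, and members that show a role. Alternatives tried were the mean of probe sets, no filter, quantile normalization again, leaving out arrays, fits within a time, a beta-actin covariate and other sets of oral doses.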

Additional observations from a re-analysis of the deposited data

Results flagged for a closer look

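In each group of 4 rats the mean log2 value over the members was compared with the other rats' values by Dixon's test, and 3 of 70 groups held a rat apart, where chance gives about 1 in 20. The arrays were heart, 6 h, oxaliplatin then water, replicate 1 at 7.89, kidney, 1 h, D5W then sunitinib, replicate 1 at 8.6, and liver, 6 h, D5W then sorafenib, replicate 2 at 7.16.

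The effect of an oral drug differed between the infusions, by limma interaction contrasts, for single members in heart and 9 of 35 in liver. In neither tissue was the members' share larger than that of all genes, of which 28.7% were called higher in liver. In heart the sorafenib effect after oxaliplatin minus that after D5W was 0.54 for Rrm1 at 1 h and -0.81 for Tyms at 6 h. The sunitinib effect differed at 24 h by -0.62 for Mcm6 and 0.60 for Tyms. In liver at 24 h the sorafenib effect differed by 0.70 for Pcna, 1.06 for Mcm2, 0.67 for Mcm3, 0.82 for Mcm4, 1.5 for Mcm6, 0.59 for Mcm7, 0.92 for Rrm1, 0.82 for Cks2 and 0.81 for Nusap1.

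The oxaliplatin effect differed between times. At 24 h minus 6 h it was -1.14 for Cdc25b in heart, and in kidney 0.45 for Mcm3, 0.63 for Mcm6, 0.57 for Tyms, 0.42 for Tk1 and -0.72 for Cdc25b. In liver it was -0.30 for Pcna, -0.48 for Tk1, -1.06 for Ccna2, -1.16 for Cdc25b, -0.84 for Aurka, -0.62 for Aurkb and -0.61 for Birc5. At 6 h minus 1 h it was 0.41 for Tyms and -0.71 for Ube2c in kidney and 0.46 for Tyms in liver.

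The oxaliplatin effect at 24 h also differed between tissues. Kidney minus liver was 0.36 for Pcna, 0.58 for Mcm3, 0.39 for Mcm5, 0.99 for Mcm6, 0.46 for Rrm1, 0.67 for Tyms, 0.92 for Cdk1, 1.25 for Ccna2, 1.17 for Cdkn3, 0.72 for Aurkb, 0.88 for Mki67 and 0.54 for Birc5. Kidney minus heart was 0.46 for Mcm2, 0.65 for Mcm3, 0.34 for Mcm5, 0.67 for Mcm6, 0.88 for Tyms and 0.57 for Tk1. Heart minus liver was 0.46 for Rrm1, 0.90 for Ccna2, 0.66 for Ccnb1, 1.02 for Ccnb2, 0.62 for Cdc25b, 1.29 for Cdkn3, 0.78 for Aurkb, 0.71 for Cdc20, 0.58 for Birc5 and 0.66 for Nusap1.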

How the results depend on the processing

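No paired analysis was possible because the labels give no replicate numbers, so rats of different groups cannot be matched. Counts of called members were within 1.5 times the reported count in all 61 results with the mean of probe sets, in 59 of 61 with no filter, in 58 of 61 after quantile normalization, in 57 of 61 without the arrays that stood apart, in 51 of 61 with the beta-actin covariate, in 21 of 31 fits within 1 time and in 29 of 42 with all arrays. For the oxaliplatin results they were so in 11 of 18 over all 4 oral doses, in 9 of 18 with water alone and in 6 of 18 with F68 alone. The cause of a change was not tested, except that single vehicles and left-out arrays use fewer rats. Shares of all genes called were counted for the reported setting only. A gene whose values lie near the filter could be tested in 1 tissue and not in another, and the 8 or 16 rats compared limit what could be called.

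With quantile normalization, heart oxaliplatin at 24 h had 1 called member, heart sorafenib after oxaliplatin had 2 and the liver oxaliplatin change from 1 to 6 h had 0. With no filter that liver change and liver F68 at 6 h each had 0. Without the arrays that stood apart, kidney sorafenib after oxaliplatin had 1, kidney 6 h against 1 h had 2, and the liver sorafenib interaction had 7 (F test) and 14 (24 h). With fits within a time, heart sorafenib after D5W at 1 h had 0, kidney oxaliplatin at 1 h 0, kidney F68 at 1 h 6 and at 24 h 1, liver oxaliplatin at 6 h 3 and at 24 h 10, liver F68 at 6 h 0 and at 24 h 0, the liver sorafenib interaction at 24 h 5, and kidney against liver 6. With the beta-actin covariate, heart sorafenib after D5W had 0 at 1 h and 6 at 24 h, heart F68 had 5 at 1 h and 1 at 24 h, heart 6 h against 1 h had 1, kidney 6 h against 1 h 0 and 24 h against 1 h 4, liver F68 0 at 6 h and 3 by the F test, and heart against liver 16.

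Over all 4 oral doses, oxaliplatin had 3 called members in heart at 6 h, 5 in kidney at 1 h, 7 at 6 h and 9 for 24 against 6 h, 1 in liver at 1 h and 3 at 6 h, and kidney against heart had 10. With water alone kidney had 0 at 1 h, 2 at 6 h and 3 for 24 against 6 h, liver had 0 at 6 h, 1 at 24 h, 0 for 24 against 6 h and 0 for 6 against 1 h, and kidney and heart against liver had 1 and 2. With F68 alone heart had 1 at 24 h and 0 for 24 against 6 h, kidney had 0 at 1 h, 2 at 24 h, 0 for 24 against 6 h and 1 for 6 against 1 h, liver had 0 at 6 h, 1 for 24 against 6 h and 0 for 6 against 1 h, and the tissue differences had 1 (kidney against liver), 0 (kidney against heart) and 1 (heart against liver). With F68 alone the direction turned in kidney at 24 h for Mcm4 (-0.02, limma adjusted p = 0.984) and Mcm5 (-0.04, limma adjusted p = 0.951). With all arrays as labelled, kidney oxaliplatin had 0 at 1 h, 2 at 6 h and 7 at 24 h, kidney sorafenib after D5W 6 at 24 h, kidney F68 9 at 6 h, kidney 6 h against 1 h 0, liver oxaliplatin 4 for 24 against 6 h and 0 for 6 against 1 h, liver F68 0 at 6 h and 2 by the F test, liver 24 h against 1 h 0, the liver sorafenib interaction 2 by the F test, and kidney against liver 6.

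Leaving out 1 array at a time, heart gave 9 to 31 called members for F68 at 1 h and 8 to 18 at 24 h, 0 to 1 for oxaliplatin at 1 h and 1 to 3 at 24 h, 0 to 1, 1 to 5 and 8 to 17 for sorafenib after D5W at 1, 6 and 24 h, 0 to 1 for sorafenib after oxaliplatin, 1 to 2 for sunitinib, 3 to 11 for 6 h against 1 h, and 2 to 5 and 1 to 2 for the sorafenib and sunitinib interactions. Kidney gave 5 to 14 and 6 to 17 for F68 at 1 and 6 h, 0 to 3 for oxaliplatin at 1 h and 2 to 4 for its change from 1 to 6 h, 0 to 1 for sorafenib after D5W at 24 h and after oxaliplatin, and 0 to 1 for 6 h against 1 h. Liver gave 0 to 1 and 1 to 5 for F68 at 6 and 24 h and 3 to 6 by the F test, 0 to 1 and 8 to 21 for oxaliplatin at 1 and 24 h, 3 to 9 and 0 to 1 for its changes from 6 to 24 h and from 1 to 6 h, 0 to 2 and 8 to 20 for sorafenib after D5W at 1 and 24 h, 4 to 14 and 3 to 9 for the sorafenib interaction at 24 h and by the F test, and 0 to 3 for 24 h against 1 h. The tissue differences gave 5 to 16 for heart and 6 to 15 for kidney against liver.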
